A study of Homo sapiens with 15 samples.

Results

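The genes described here encode the plasminogen activators PLAU and PLAT, the activator receptor PLAUR, the activator inhibitor SERPINE2, the membrane-anchored metalloproteinase MMP14 and the metalloproteinase inhibitors TIMP1, TIMP2 and TIMP3. These 8 genes, of 18377 on the array, were taken by symbol, from probe sets that the platform table pairs with that symbol alone. TIMP3 had 2 such probe sets and the other genes 1 each, and the probe set of highest mean was used. The genes lie on chromosomes 10 (PLAU), 19 (PLAUR), 8 (PLAT), 2 (SERPINE2), 14 (MMP14), X (TIMP1), 17 (TIMP2) and 22 (TIMP3). All 8 passed the filter on dim signal. RNA was measured in A549, a human lung adenocarcinoma cell line, on 1 whole-transcript array per culture, in 5 groups of 3 cultures. Cells of 3 groups received 10 µM of BB2-125, BB2-162 or BB2-282, which are code-named compounds that the design text calls transcriptional inhibitors, and 6 h later went into gas-generating pouches for 42 h of hypoxia. The hypoxic vehicle group had the same hypoxia with vehicle only, and the normoxic vehicle group had vehicle without hypoxia. All 5 groups contained 0.1% DMSO, and all are this 1 cell line. No compound was analysed in normoxia here, so an effect of a compound on hypoxia cannot be told apart from a general effect of that compound. Replicates are labelled biological with no further detail, and the p-values therefore reflect only how these cultures varied.

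PLAU (urokinase) and PLAT (tissue-type activator) are serine proteases that cut plasminogen into plasmin, a protease that degrades fibrin and matrix proteins. PLAUR holds urokinase at the cell surface, where plasminogen is activated close to the membrane, and serpins such as SERPINE2 (protease nexin-1) trap the activators and thrombin in covalent complexes. MMP14 is a membrane protease that cuts collagen and activates pro-MMP2 in a complex in which TIMP2 serves as the bridge, and TIMPs block metalloproteinases by occupying the active site. In lung carcinoma cells these genes are studied for their part in pericellular proteolysis, invasion and migration.

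Levels are log2 of the deposited intensities, given as mean ± SD over 3 arrays, and changes are differences of log2 levels ± SE from limma's fit of all 15 arrays. A change was called at an adjusted p under 0.05, with Benjamini-Hochberg adjustment over the 16005 genes tested. Intensities have no read depth, so precision is limited by the 3 arrays per group. Array medians of intensity lay between 74.91 and 84.6. The dim-signal filter lay at a mean log2 level of 4.73, and no group mean of the 8 genes fell to it. BB2-162 replicate 1 stood furthest from its group mean (0.221 log2 units, as root mean square over genes), and the other arrays stood 0.094 to 0.163 away. All 6 epithelial markers (EPCAM, KRT7, KRT8, KRT18, KRT19, CDH1) lay above the filter level in every group. In hypoxic against normoxic vehicle 2 of them rose, KRT19 by 1.42 ± 0.11 and also KRT7. The other 4 fell, among them CDH1 by 1.53 ± 0.14 and EPCAM by 1.32 ± 0.16. Over all genes tested 28.2% were called higher and 29.4% lower. The part of the epithelial markers in the changes below was not tested. Of the fibroblast markers LUM and DCN, and of the leukocyte markers PTPRC and LYZ, lay at or below the filter level in every group. COL1A1, COL1A2, COL3A1, CD3E, CD14 and ITGAM lay above it in every group, and PDGFRA only with BB2-162. COL1A1 averaged 7.71, and against hypoxic vehicle it rose by 0.33 ± 0.10 with BB2-162 and by 0.35 ± 0.10 with BB2-282. No tested fibroblast marker fell there. The leukocyte marker CD3E rose against hypoxic vehicle by 0.44 ± 0.12 with BB2-125 and by 0.37 ± 0.12 with BB2-162. With BB2-162 the leukocyte marker ITGAM rose by 0.31 ± 0.09 and the endothelial marker CLDN5 by 0.39 ± 0.12. No tested leukocyte or endothelial marker was called lower with a compound against that vehicle. All endothelial markers but PECAM1 and TEK lay above the filter level in every group, with CLDN5 at a mean of 7.48. The 6 fibroblast markers together averaged 5.27 to 5.32 over the BB2-125 arrays, 5.34 to 5.51 over BB2-162, 5.28 to 5.36 over BB2-282, 5.18 to 5.33 over the hypoxic vehicle and 5.27 to 5.36 over the normoxic vehicle arrays. The 5 leukocyte markers together averaged 4.73 to 5.16 and the 6 endothelial markers 5.26 to 5.78 over all arrays, and the part of these lists was not tested either.

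PLAUR, the urokinase receptor gene, was the member with the widest span, 1.82 between its highest and lowest group means. Its log2 level was 11.36, 11.81 and 11.20 on the hypoxic vehicle arrays, against 9.67, 9.70 and 9.54 on the normoxic vehicle arrays. Every hypoxic array was above every normoxic one. The means were 11.46 ± 0.32 in hypoxic vehicle and 9.64 ± 0.08 in normoxic vehicle, a rise of 1.82 ± 0.14 (3.53-fold, adjusted p = 3.34e-09). In bulk RNA, fewer cells expressing a gene and less RNA per cell cannot be told apart. With BB2-125 PLAUR read 10.72, 10.85 and 11.004, with all 3 arrays below the hypoxic vehicle. It fell by 0.60 ± 0.14 against that vehicle (adjusted p = 0.00379) and was still 1.22 ± 0.14 above normoxic vehicle (adjusted p = 7.35e-07). With BB2-162 the levels were 11.60, 11.29 and 11.11, and with BB2-282 they were 11.23, 11.09 and 11.24, overlapping the hypoxic vehicle in each case. Neither change passed against that vehicle, at -0.13 ± 0.14 for BB2-162 (adjusted p = 0.498) and -0.27 ± 0.14 for BB2-282 (adjusted p = 0.262). Against the normoxic vehicle PLAUR rose by 1.69 ± 0.14 with BB2-162 (adjusted p = 6.92e-09) and by 1.55 ± 0.14 with BB2-282 (adjusted p = 2.56e-08). In order from the top the groups were hypoxic vehicle, BB2-162, BB2-282, BB2-125 and normoxic vehicle, and of the 4 steps between neighbours only that from BB2-125 to normoxic vehicle passed the test.

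The bases before the RefSeq start of PLAUR and of SERPINE2 (GRCh38.p14) are shown because these genes had the widest spans. Each line gives the 250 bases before a start on the gene's own strand, here the minus strand, and SERPINE2 has 2 starts in the table. Capitals mark the HIF core (ACGTG or GCGTG on either strand) and the AP-1 motif (TGANTCA).
PLAUR, chr19:43670170-43670419: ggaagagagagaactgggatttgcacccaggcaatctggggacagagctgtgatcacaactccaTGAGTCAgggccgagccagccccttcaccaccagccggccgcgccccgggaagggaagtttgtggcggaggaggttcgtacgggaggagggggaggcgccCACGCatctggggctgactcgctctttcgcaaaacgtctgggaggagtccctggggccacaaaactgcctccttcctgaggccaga
SERPINE2 start 1, chr2:224038641-224038890: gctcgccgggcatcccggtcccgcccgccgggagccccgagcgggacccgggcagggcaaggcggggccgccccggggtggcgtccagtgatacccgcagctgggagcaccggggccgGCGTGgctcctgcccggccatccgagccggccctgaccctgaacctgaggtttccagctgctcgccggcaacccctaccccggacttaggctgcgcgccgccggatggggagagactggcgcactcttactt
SERPINE2 start 2, chr2:224031479-224031728: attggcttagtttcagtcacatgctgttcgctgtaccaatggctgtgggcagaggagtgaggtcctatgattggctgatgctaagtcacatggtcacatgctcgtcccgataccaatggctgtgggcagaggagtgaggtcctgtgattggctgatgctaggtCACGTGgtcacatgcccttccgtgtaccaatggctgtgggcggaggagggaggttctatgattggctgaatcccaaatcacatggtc
The PLAUR window held TGAGTCA from 186 to 180 bases before the start and 1 HIF core, CACGC on this strand, from 86 to 82. SERPINE2 start 1 held GCGTG from 132 to 128, and start 2 held CACGTG from 87 to 82, in which the HIF core reads on both strands. Windows were found for 6 of the 8 genes, 8 windows in all. A HIF core lay in 7 of these 8 windows and in 43.2% of all 35116 windows of this length, and the AP-1 motif lay in 1 of 8 and in 6.57% of all. The Sp1 GC box (GGGCGG) lay in 6 of the 8 and in 42.6% of all, and the TATA box (TATAAA) in 0 of the 8 and in 10.7% of all. The 2 readings of the HIF core in SERPINE2 start 2 overlap each other, and the AP-1 motif of PLAUR overlaps no HIF core. G or C made up 63.2% of the PLAUR window and 75.2% and 53.2% of the SERPINE2 windows, beside a median of 58.0% over all windows. The part of base composition in these motif counts was not tested. A match is a description of letters, and binding was not measured.

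**Figure D1:**
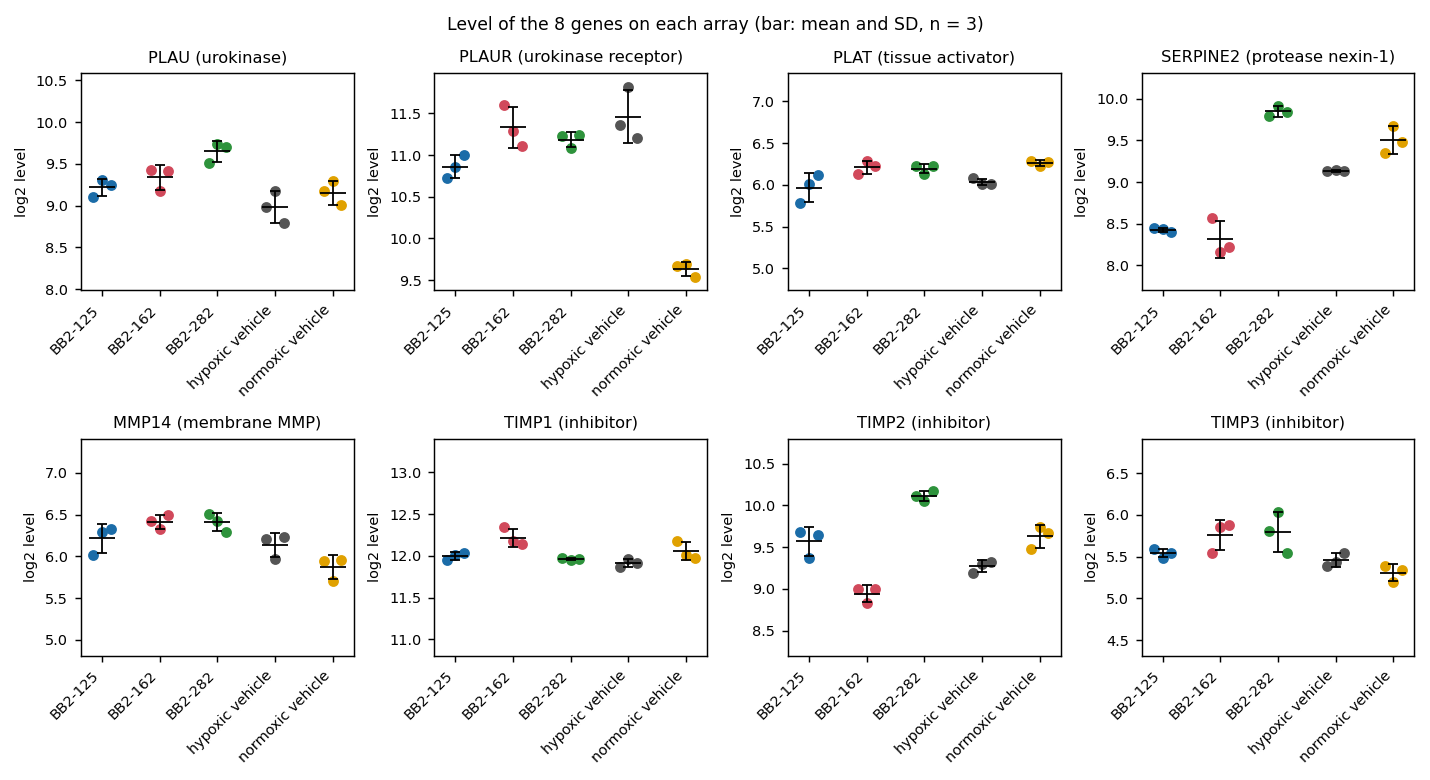
Log2 level of each of the 8 genes on every array (points), with the mean and SD of each group of 3; each panel spans at least 2.6 log2 units. PLAUR stands lowest in normoxic vehicle (9.54 to 9.70), and SERPINE2 and TIMP2 stand highest with BB2-282 (9.79 to 9.91 and 10.05 to 10.17).

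PLAU, the urokinase gene, did not follow its receptor. On the log2 scale it read 8.98, 9.17 and 8.80 in hypoxic vehicle, against 9.17, 9.29 and 9.001 in normoxic vehicle, and these groups overlapped. The change of -0.17 ± 0.12 did not pass (adjusted p = 0.22), with a 95% interval of -0.42 to 0.08. With BB2-282 PLAU read 9.51, 9.74 and 9.70, above every vehicle array of either kind. It rose by 0.67 ± 0.12 against hypoxic vehicle (1.59-fold, adjusted p = 0.000923) and by 0.50 ± 0.12 against normoxic vehicle (adjusted p = 0.0013). With BB2-162 it read 9.43, 9.17 and 9.41, just clear of the hypoxic vehicle arrays, a rise of 0.35 ± 0.12 (adjusted p = 0.0262). That call ended after median centring (adjusted p = 0.101), in a fit of the 2 groups alone (0.0872), and without hypoxic vehicle replicate 1 (0.0625), hypoxic vehicle replicate 3 (0.106), BB2-162 replicate 1 (0.0559) or BB2-162 replicate 3 (0.0898). With BB2-125 the levels of 9.11, 9.31 and 9.25 overlapped those of the hypoxic vehicle, and the change of 0.24 ± 0.12 did not pass (adjusted p = 0.156). Among neighbours in the order of levels, only BB2-282 over BB2-162 passed (adjusted p = 0.0463).

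PLAT, the tissue-type activator gene, had the narrowest span of all 8 genes, 0.29 between group means. Levels were 5.78, 6.00 and 6.12 with BB2-125, 6.12, 6.28 and 6.22 with BB2-162, 6.22, 6.13 and 6.22 with BB2-282, 6.08, 6.01 and 6.01 in hypoxic vehicle, and 6.29, 6.22 and 6.27 in normoxic vehicle. The hypoxic vehicle arrays all lay below the normoxic ones, but the change of -0.23 ± 0.10 did not pass (adjusted p = 0.0536). It passed after median centring (adjusted p = 0.0211) and after quantile normalization (adjusted p = 0.021). The BB2-162 and BB2-282 arrays lay above the hypoxic vehicle, with changes of 0.17 ± 0.10 (adjusted p = 0.159) and 0.16 ± 0.10 (0.361) that did not pass. The 1 called change of PLAT was a fall of 0.29 ± 0.10 with BB2-125 against normoxic vehicle (adjusted p = 0.0136), which ended without BB2-125 replicate 1 (adjusted p = 0.0898). No neighbours in the order of PLAT levels differed by the test.

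SERPINE2, which encodes the serpin protease nexin-1, moved in opposite directions with different compounds. The gene read 8.45, 8.44 and 8.40 with BB2-125 and 8.57, 8.16 and 8.22 with BB2-162, against 9.13, 9.15 and 9.13 in hypoxic vehicle. With BB2-282 it was 9.79, 9.91 and 9.84. The arrays of BB2-125 and BB2-162 lay below every hypoxic vehicle array and those of BB2-282 above. SERPINE2 fell by 0.71 ± 0.11 with BB2-125 (1.63-fold lower, adjusted p = 7.57e-05) and by 0.82 ± 0.11 with BB2-162 (1.76-fold lower, adjusted p = 1.73e-05), and it rose by 0.71 ± 0.11 with BB2-282 (1.64-fold, adjusted p = 0.000294). These 3 calls held under each of the 15 alternatives run for each. In hypoxia alone the gene also fell, with 9.13 ± 0.01 in hypoxic vehicle and 9.50 ± 0.16 in normoxic vehicle (9.35, 9.68 and 9.48). That fall of 0.37 ± 0.11 (adjusted p = 0.0081) ended without normoxic vehicle replicate 2 (adjusted p = 0.0554). Against normoxic vehicle SERPINE2 was thus 1.08 ± 0.11 lower with BB2-125 (adjusted p = 1.17e-07) and 1.19 ± 0.11 lower with BB2-162 (adjusted p = 2.28e-08), but 0.34 ± 0.11 higher with BB2-282 (adjusted p = 0.0117). The last call ended after median centring (adjusted p = 0.0503) and without normoxic vehicle replicate 1 (adjusted p = 0.0618). In the order BB2-282, normoxic vehicle, hypoxic vehicle, BB2-125 and BB2-162, all steps passed except the lowest, between BB2-125 and BB2-162.

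MMP14, the membrane metalloproteinase gene, was lowest in normoxic vehicle. Its log2 level was 6.02, 6.30 and 6.33 with BB2-125, 6.42, 6.32 and 6.50 with BB2-162, 6.51, 6.42 and 6.29 with BB2-282, 6.21, 5.97 and 6.23 in hypoxic vehicle, and 5.95, 5.71 and 5.96 in normoxic vehicle. The hypoxic vehicle arrays lay just above the normoxic ones, and the change of 0.26 ± 0.11 did not pass (adjusted p = 0.0525). It passed with the stricter 50th percentile filter (adjusted p = 0.0455) and without hypoxic vehicle replicate 2 (0.0224). The BB2-162 and BB2-282 arrays also lay above the hypoxic vehicle ones, but against that vehicle no compound passed, with 0.08 ± 0.11 for BB2-125 (adjusted p = 0.686), 0.28 ± 0.11 for BB2-162 (0.0627) and 0.27 ± 0.11 for BB2-282 (0.134). Against normoxic vehicle MMP14 rose with each compound, by 0.34 ± 0.11 with BB2-125 (adjusted p = 0.0139), 0.54 ± 0.11 with BB2-162 (0.000341) and 0.54 ± 0.11 with BB2-282 (0.000447). The BB2-125 call ended without normoxic vehicle replicate 2 (adjusted p = 0.0809), BB2-125 replicate 2 (0.0549) or BB2-125 replicate 3 (0.0667). No neighbours in the order of MMP14 levels differed by the test.

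TIMP2, whose protein both inhibits MMP14 and bridges it to pro-MMP2, had the widest span of the 3 TIMP genes, 1.17. Its log2 level was 10.11, 10.05 and 10.17 with BB2-282, 9.003, 8.83 and 8.998 with BB2-162, and 9.69, 9.37 and 9.64 with BB2-125, against 9.19, 9.30 and 9.32 in hypoxic vehicle. No compound's arrays overlapped those of this vehicle. TIMP2 rose by 0.84 ± 0.10 with BB2-282 (1.79-fold, adjusted p = 3.64e-05), fell by 0.32 ± 0.10 with BB2-162 (adjusted p = 0.0227) and rose by 0.30 ± 0.10 with BB2-125 (adjusted p = 0.0391). The BB2-282 call held under all 15 alternatives. The BB2-162 call ended after quantile normalization (adjusted p = 0.0871), in a fit of the 2 groups alone (0.0725), and without hypoxic vehicle replicate 2 (0.067), hypoxic vehicle replicate 3 (0.0578) or BB2-162 replicate 2 (0.0947). The BB2-125 call ended after median centring (adjusted p = 0.0753), in a fit of the 2 groups alone (0.0654), and without hypoxic vehicle replicate 1 (0.132), 2 (0.0705) or 3 (0.0539) or BB2-125 replicate 1 (0.16) or 3 (0.14). In hypoxia alone TIMP2 fell, with 9.27 ± 0.07 in hypoxic vehicle and 9.63 ± 0.13 in normoxic vehicle (9.48, 9.74 and 9.66), a fall of 0.36 ± 0.10 (adjusted p = 0.00719). Against normoxic vehicle it rose by 0.48 ± 0.10 with BB2-282 (adjusted p = 0.000571) and fell by 0.68 ± 0.10 with BB2-162 (adjusted p = 1.46e-05), while BB2-125 gave -0.06 ± 0.10 (adjusted p = 0.631; 95% interval -0.28 to 0.16). In the order BB2-282, normoxic vehicle, BB2-125, hypoxic vehicle and BB2-162, only the step between normoxic vehicle and BB2-125 did not pass.

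TIMP1, a broad metalloproteinase inhibitor that also has growth-promoting activity, spanned 0.31. Levels were 12.34, 12.18 and 12.14 with BB2-162, 11.95, 12.01 and 12.03 with BB2-125, and 11.97, 11.95 and 11.96 with BB2-282, against 11.87, 11.96 and 11.91 in hypoxic vehicle. Only the BB2-162 arrays were clear of this vehicle, and TIMP1 rose there by 0.31 ± 0.09 (adjusted p = 0.0142). That call ended after median centring (adjusted p = 0.0624), in a fit of the 2 groups alone (0.0842) and without hypoxic vehicle replicate 1 (0.0514). Hypoxia alone gave -0.15 ± 0.09 (adjusted p = 0.177), with the hypoxic vehicle below all normoxic arrays (12.19, 12.02 and 11.98). Against normoxic vehicle no compound passed, with -0.06 ± 0.09 for BB2-125, 0.16 ± 0.09 for BB2-162 and -0.10 ± 0.09 for BB2-282. After quantile normalization the change in hypoxia alone was -0.30 and passed (adjusted p = 0.00725), as did that of BB2-125 against normoxic vehicle, at -0.26 (0.0166). BB2-162 against normoxic vehicle passed without normoxic vehicle replicate 1, at 0.22 (adjusted p = 0.0468). No neighbours in the order of TIMP1 levels differed by the test.

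TIMP3, the inhibitor that binds to the matrix and also blocks ADAM proteases, read 5.59, 5.49 and 5.55 with BB2-125, 5.55, 5.85 and 5.88 with BB2-162, and 5.80, 6.03 and 5.55 with BB2-282, against 5.39, 5.43 and 5.55 in hypoxic vehicle. These groups overlapped, and no compound passed against hypoxic vehicle, with changes of 0.09 ± 0.12 (BB2-125, adjusted p = 0.677), 0.30 ± 0.12 (BB2-162, 0.0555) and 0.34 ± 0.12 (BB2-282, 0.0731). The BB2-162 change passed without BB2-162 replicate 1 (adjusted p = 0.0107) and the BB2-282 change without BB2-282 replicate 3 (0.0238). Both of these arrays, as well as hypoxic vehicle replicate 3 and BB2-125 replicate 3, held the same deposited intensity of 46.75. The reason was not tested. With the mean of both TIMP3 probe sets the changes were 0.16 for BB2-162 (adjusted p = 0.258) and 0.11 for BB2-282 (0.636), and after quantile normalization that of BB2-162 was 0.18 (0.205). Without BB2-282 replicate 2 the BB2-282 change was 0.22 (adjusted p = 0.362). The normoxic vehicle read 5.38, 5.19 and 5.34, from which hypoxia alone differed by 0.15 ± 0.12 (adjusted p = 0.299). Against normoxic vehicle TIMP3 rose by 0.45 ± 0.12 with BB2-162 (adjusted p = 0.00257) and by 0.49 ± 0.12 with BB2-282 (adjusted p = 0.00184), and BB2-125 gave 0.23 ± 0.12 (adjusted p = 0.0991). The BB2-162 call ended after quantile normalization (adjusted p = 0.0551). The second TIMP3 probe set, listed for 1 transcript record, read 4.11 to 4.75 over the 15 arrays, below the level of the dim filter on all but hypoxic vehicle replicate 1. PLAT and TIMP3 did not enter the fits with the stricter filter.

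**Figure D2:**
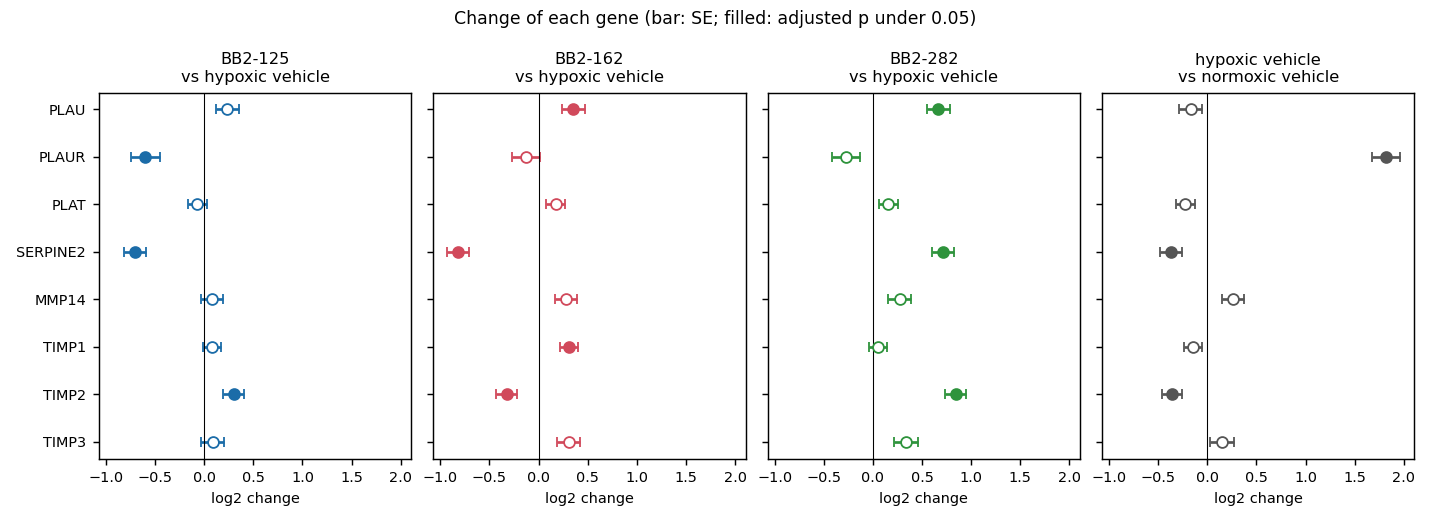
Change in log2 level of each gene for each compound against hypoxic vehicle and for hypoxic against normoxic vehicle (point, with SE bars; filled where the adjusted p was under 0.05). PLAUR has the one change above 1, 1.82 in hypoxia, and SERPINE2 lies at -0.71, -0.82 and 0.71 with the 3 compounds.

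The 3 comparisons of a compound with hypoxic vehicle share those vehicle arrays, which are also in the comparison of hypoxia with normoxia. Counted by comparison, hypoxia without compound raised 1 of the 8 genes (PLAUR) and lowered 2 (SERPINE2 and TIMP2), and 5 did not pass. In this comparison 57.5% of all genes tested were called. The arrays of 7 of the 8 genes did not overlap between hypoxic and normoxic vehicle, which held for 64.6% of all genes. The same was counted for each compound against hypoxic vehicle, with 3 of 8 for BB2-125 beside 41.3% of all genes, 6 of 8 for BB2-162 beside 40.3%, and 5 of 8 for BB2-282 beside 31.4%. BB2-125 against hypoxic vehicle raised TIMP2 and lowered PLAUR and SERPINE2, 3 of 8 called beside 28.4% of all genes. BB2-162 raised PLAU and TIMP1 and lowered SERPINE2 and TIMP2, 4 of 8 beside 36.1%. Without hypoxic vehicle replicate 1 or 3 that count was 2, and in a fit of the 2 groups alone it was 1, SERPINE2. BB2-282 raised PLAU, SERPINE2 and TIMP2 and lowered none, 3 of 8 beside 13.6%. The count of all genes behind that share fell to 1222 without hypoxic vehicle replicate 1, 1352 without replicate 2 and 1258 without BB2-282 replicate 2, against 2176 with all arrays. The median change of the 8 genes was 0.305 with BB2-282, 0.226 with BB2-162 and 0.08 with BB2-125, beside 0.015, 0.063 and 0.025 over all genes, and it was -0.158 in hypoxia beside 0.091. Of all genes called with BB2-162 against hypoxic vehicle 43.4% were higher, and 28.2% after median centring of the arrays.

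Against normoxic vehicle, which asks where the treated hypoxic cells stood relative to unstressed cells, 6 of the 8 genes rose with BB2-282 and none fell, beside 64.8% of all genes called (33.4% higher and 31.4% lower). PLAU, PLAUR, SERPINE2, MMP14, TIMP2 and TIMP3 were those 6. With BB2-162 3 rose (PLAUR, MMP14, TIMP3) and 2 fell (SERPINE2, TIMP2), beside 76.8% (42.4% higher and 34.4% lower). With BB2-125 2 rose (PLAUR, MMP14) and 2 fell (SERPINE2, PLAT), beside 62.0% (31.5% higher and 30.5% lower). The groups did not overlap in 7 of the 8 genes for BB2-282 (74.4% of all genes), 5 for BB2-162 (75.2%) and 5 for BB2-125 (70.5%). The median change of all genes in the BB2-162 comparison was 0.14 as deposited and 0.03 after median centring. The 3 comparisons share the normoxic vehicle arrays. By mean level MMP14 and TIMP3 stood above 37.6% and 26.4% of all genes, and PLAT, which did not rise, above 36.1%. The 25th percentile of the arrays was 4.57 to 4.63 in normoxic vehicle, 4.70 to 4.75 with BB2-282 and 4.75 to 4.90 with BB2-162. Of the 6 endothelial markers 3 rose with BB2-282, 5 with BB2-162 and 4 with BB2-125, and none fell. The part of such shifts in the rises of MMP14 and TIMP3 was not tested.

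The compounds were compared with each other at the same dose and times, in 3 pairs whose contrasts hold no vehicle array. SERPINE2 separated BB2-282 from the other two compounds, and TIMP2 separated all 3. SERPINE2 was 1.42 ± 0.11 lower with BB2-125 than with BB2-282 (adjusted p = 1.68e-08) and 1.53 ± 0.11 lower with BB2-162 than with BB2-282 (adjusted p = 9.32e-09). BB2-125 and BB2-162 differed in SERPINE2 by 0.11 ± 0.11 (adjusted p = 0.463), with a 95% interval of -0.12 to 0.34. TIMP2 was 0.62 ± 0.10 higher with BB2-125 than with BB2-162 (adjusted p = 0.000272). It was 0.54 ± 0.10 lower with BB2-125 than with BB2-282 (adjusted p = 0.000393), and 1.17 ± 0.10 lower with BB2-162 than with BB2-282 (adjusted p = 1.26e-07). These 5 called differences in SERPINE2 and TIMP2 held under every alternative run.

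Smaller differences between compounds concerned the activator, its receptor and TIMP1. PLAU was 0.43 ± 0.12 lower with BB2-125 than with BB2-282 (adjusted p = 0.00689), a call that held throughout. It was 0.31 ± 0.12 lower with BB2-162 than with BB2-282 (adjusted p = 0.0463), a call that ended under 9 of 15 alternatives, among them those without BB2-162 replicate 2 (0.193), BB2-162 replicate 3 (0.056), BB2-282 replicate 2 (0.153) or BB2-282 replicate 3 (0.133). PLAUR was 0.47 ± 0.14 lower with BB2-125 than with BB2-162 (adjusted p = 0.022), a call that ended after median centring (0.0597) and without BB2-125 replicate 1 (0.0954), BB2-125 replicate 2 (0.0517) or BB2-162 replicate 1 (0.0712). TIMP1 was 0.26 ± 0.09 higher with BB2-162 than with BB2-282 (adjusted p = 0.0332), a call that ended under 8 of 15, among them those without BB2-162 replicate 1 (0.0903) and without BB2-282 replicate 1 (0.0663), 2 (0.0864) or 3 (0.0813). MMP14 did not pass in any pair, and between BB2-162 and BB2-282 its difference was 0.01 with a 95% interval of -0.23 to 0.24. TIMP3 and PLAT did not pass in any pair either, with differences of -0.25 to -0.03 for TIMP3 and of -0.24 to 0.02 for PLAT. For BB2-125 against BB2-162, 1 of the 8 members was higher and 1 lower, beside 26.1% of all genes called (16.7% higher and 9.43% lower). For BB2-125 against BB2-282, 0 were higher and 3 lower, beside 36.3% (18.7% higher and 17.6% lower). For BB2-162 against BB2-282, 1 was higher and 3 lower, beside 35.8% (15.6% higher and 20.3% lower). The groups did not overlap in 4, 5 and 4 of the 8 genes in these pairs, beside 36.7%, 51.2% and 44.9% of all genes. Of the genes called, 63.9% were higher in BB2-125 than in BB2-162, and 74.4% after median centring. For BB2-162 against BB2-282 these shares were 43.4% and 32.9%.

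**Figure D3:**
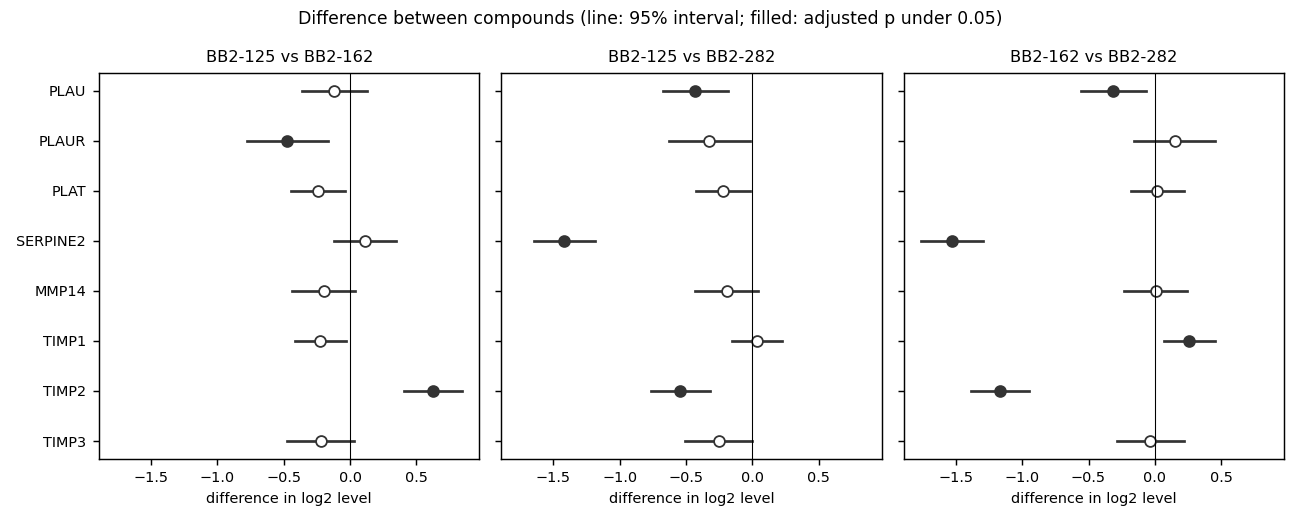
Difference in log2 level between 2 compounds for each gene (point, with the 95% interval; filled where the adjusted p was under 0.05). The intervals of SERPINE2 and TIMP2 lie wholly below 0 in both pairs with BB2-282, and that of TIMP2 lies above 0 for BB2-125 against BB2-162.

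The other genes of plasminogen activation were led by LRP1, which encodes the endocytic receptor that removes protease and serpin complexes from the cell surface. LRP1 rose by 3.21 ± 0.17 in hypoxia (adjusted p = 1.14e-11), with 11.26 in hypoxic vehicle and 8.04 in normoxic vehicle. It fell by 1.73 ± 0.17 with BB2-125 (adjusted p = 4.03e-07) and by 1.18 ± 0.17 with BB2-162 (adjusted p = 3.12e-05) against hypoxic vehicle, and was 2.18 ± 0.17 lower with BB2-125 than with BB2-282 (adjusted p = 1.55e-08). Of 15 tested genes in this list 3 rose and 4 fell in hypoxia, beside 28.2% of all genes called higher and 29.4% called lower. The falls included IGF2R (-1.62 ± 0.14), a receptor for mannose-6-phosphate ligands, and VTN (-0.91 ± 0.10), which encodes the matrix protein vitronectin. CPB2, a carboxypeptidase gene, was also called (-1.04 ± 0.11), but its hypoxic level lay below the dim filter and the change counted from the filter level was -0.01. BB2-125 raised 0 and lowered 3 of the 15, beside 13.3% and 15% of all genes, and the falls other than LRP1 were S100A10 (-0.29 ± 0.09) and ANXA2 (-0.24 ± 0.08), which form a plasminogen-binding complex. BB2-162 raised 2 and lowered 4, beside 15.7% and 20.4%, with SERPINI1 at -0.88 ± 0.20 and ANXA2 at -0.41 ± 0.08. BB2-282 raised 1, MRC2 (0.45 ± 0.10), a collagen receptor that associates with the urokinase receptor, and lowered 2, VTN (-1.17 ± 0.10) and SERPINI1 (-1.14 ± 0.20; -1.09 from the filter level), beside 5.65% and 7.94%. SERPINI1 encodes neuroserpin, an inhibitor of tissue-type activator. The list's median change was 0.09 in hypoxia, 0.051 with BB2-125, -0.147 with BB2-162 and 0.004 with BB2-282, beside the medians of all genes given above.

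Among the other matrix metalloproteinases, MMP10 (stromelysin-2) and MMP7 (matrilysin) moved furthest. Of 15 tested, 4 rose and 4 fell in hypoxia, with MMP10 at 1.96 ± 0.13 (adjusted p = 3.66e-10), MMP7 at -1.78 ± 0.22 (adjusted p = 1.35e-06), MMP24 at -0.79 ± 0.12 and MMP2 at -0.69 ± 0.11. BB2-125 raised 1 and lowered 2 against hypoxic vehicle, with MMP10 at -1.61 ± 0.13 (adjusted p = 5.41e-08). BB2-162 raised 2, among them MMP2, the gelatinase that MMP14 activates, at 0.34 ± 0.11. It lowered 2, MMP7 at -1.01 ± 0.22 (adjusted p = 0.00177) and MMP24 at -0.56 ± 0.12. BB2-282 raised 2, MMP2 at 0.58 ± 0.11 (adjusted p = 0.00113) and MMP10 at 0.47 ± 0.13, and lowered 1, MMP7 at -0.76 ± 0.22, with overlapping arrays. MMP10 was 2.09 ± 0.13 lower with BB2-125 than with BB2-282 (adjusted p = 1.89e-09). Of all genes, 28.2% were called higher and 29.4% lower in hypoxia, 13.3% and 15% with BB2-125, 15.7% and 20.4% with BB2-162, and 5.65% and 7.94% with BB2-282. The list's median change was 0.211 in hypoxia, 0.02 with BB2-125, 0.197 with BB2-162 and 0.101 with BB2-282, beside 0.091, 0.025, 0.063 and 0.015 over all genes.

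Of 13 regulators of metalloproteinases, 2 rose and 6 fell in hypoxia, with falls of FURIN (-1.05 ± 0.10) and PCSK6 (-1.19 ± 0.11), which encode proprotein convertases, and of TIMP4 (-0.96 ± 0.11), the other inhibitor of the TIMP family. FURIN cuts pro-MMP14 to its active form. It fell by a further 1.04 ± 0.10 with BB2-125 (adjusted p = 2.9e-07) and 0.65 ± 0.10 with BB2-162 (adjusted p = 5.66e-05) against hypoxic vehicle. BB2-125 raised 1 and lowered 4 of the 13, BB2-162 raised 1 (TFPI2, 0.53 ± 0.11, a serine protease inhibitor) and lowered 7, and BB2-282 raised 1 and lowered 1. SPOCK1, a matrix proteoglycan gene, showed the same opposition as SERPINE2, at -0.91 ± 0.13 with BB2-125, -0.60 ± 0.13 with BB2-162 and 1.05 ± 0.13 with BB2-282. It was 1.96 ± 0.13 lower with BB2-125 than with BB2-282 (adjusted p = 2.28e-09). These counts stand beside shares of all genes called higher and lower of 28.2% and 29.4% in hypoxia, 13.3% and 15% with BB2-125, 15.7% and 20.4% with BB2-162, and 5.65% and 7.94% with BB2-282. The list's median change was -0.222 in hypoxia, -0.137 with BB2-125, -0.3 with BB2-162 and 0.032 with BB2-282, beside 0.091, 0.025, 0.063 and 0.015 over all genes.

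Of 14 ADAM and ADAMTS genes 3 rose and 1 fell in hypoxia, the rises being ADAMTS9 (0.95 ± 0.10), ADAM17 (0.78 ± 0.13), the sheddase of membrane-bound TNF, and ADAM19 (0.41 ± 0.12), and the fall ADAM12 (-1.18 ± 0.12). Against hypoxic vehicle BB2-125 raised 1 and lowered 5, with ADAM17 at -1.11 ± 0.13 and ADAMTS9 at -1.78 ± 0.10. BB2-162 raised 0 and lowered 5, with ADAM17 at -1.09 ± 0.13 and ADAM10, another sheddase, at -0.77 ± 0.13. BB2-282 raised 1, ADAM19 (1.13 ± 0.12), and lowered 1, ADAMTS9 (-0.86 ± 0.10). ADAM17 was 1.18 ± 0.13 lower with BB2-125 than with BB2-282 (adjusted p = 1.3e-06) and 1.17 ± 0.13 lower with BB2-162 than with BB2-282 (adjusted p = 2.15e-06). Called higher and lower over all genes were 28.2% and 29.4% in hypoxia, 13.3% and 15% for BB2-125, 15.7% and 20.4% for BB2-162, and 5.65% and 7.94% for BB2-282. The list's median change was -0.043 in hypoxia, -0.094 with BB2-125, -0.005 with BB2-162 and 0.068 with BB2-282, beside 0.091, 0.025, 0.063 and 0.015 over all genes. Of the lists' genes, MMP23B and ADAMTS15 were among those not analysed here.

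**Figure D4:**
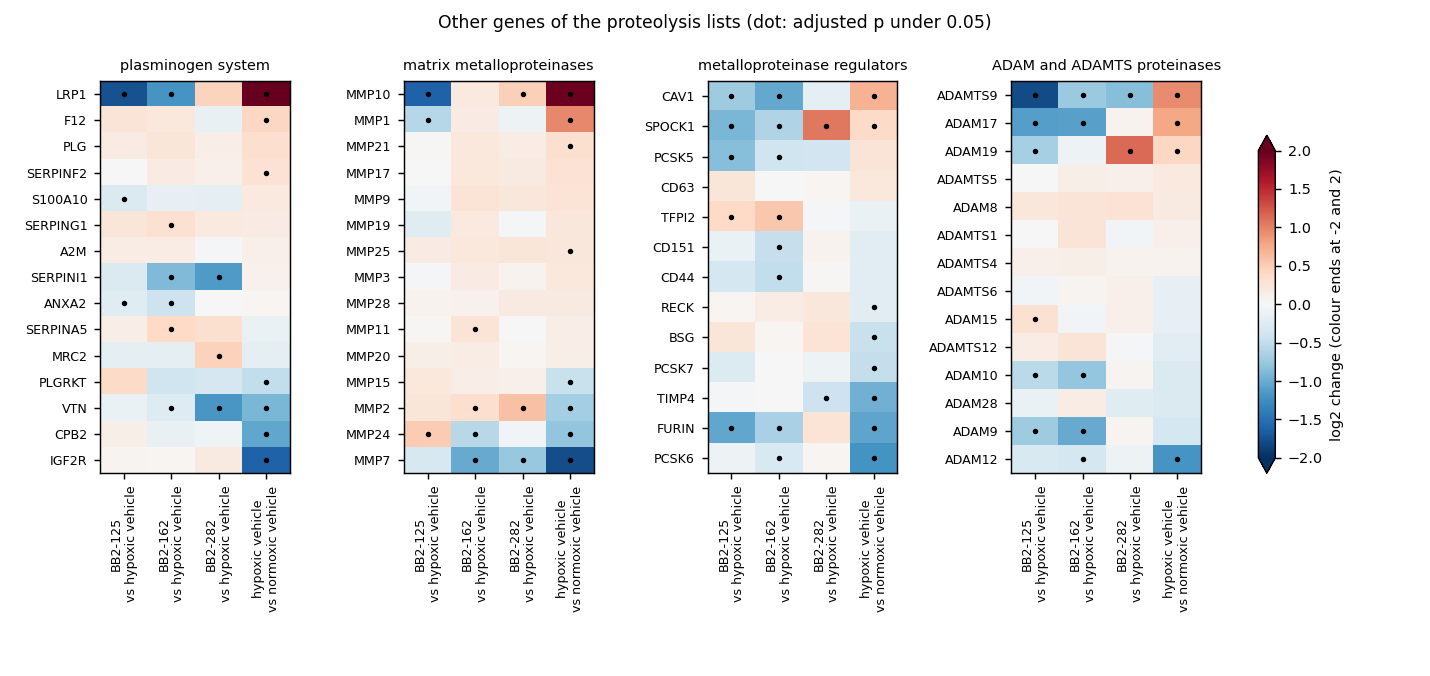
Change in log2 level of the tested genes of 4 lists (colour, which ends at -2 and 2), for each compound against hypoxic vehicle and for hypoxic against normoxic vehicle; dots mark an adjusted p under 0.05. LRP1 (3.21) and MMP10 (1.96) rise in hypoxia, and both fall with BB2-125 (-1.73 and -1.61).

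Genes with profiles most like those of the members were sought for the 3 members whose group means spanned at least 1 on the log2 scale. Likeness was the root mean square difference over the 15 arrays after each gene was centred on its own mean, a description that carries no test. Nearest to PLAUR were ARRDC3 (0.12), NDEL1 (0.14) and BNIP3L (0.17), beside a median of 0.67 over all other genes tested. Nearest to SERPINE2 were NDST1 (0.14), C3 (0.14) and MAP4K4 (0.15), beside 0.69. TIMP2 had less close neighbours, SLIT3 (0.19), MSRB3 (0.19) and LRRK1 (0.20), beside 0.51.

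**Figure D5:**
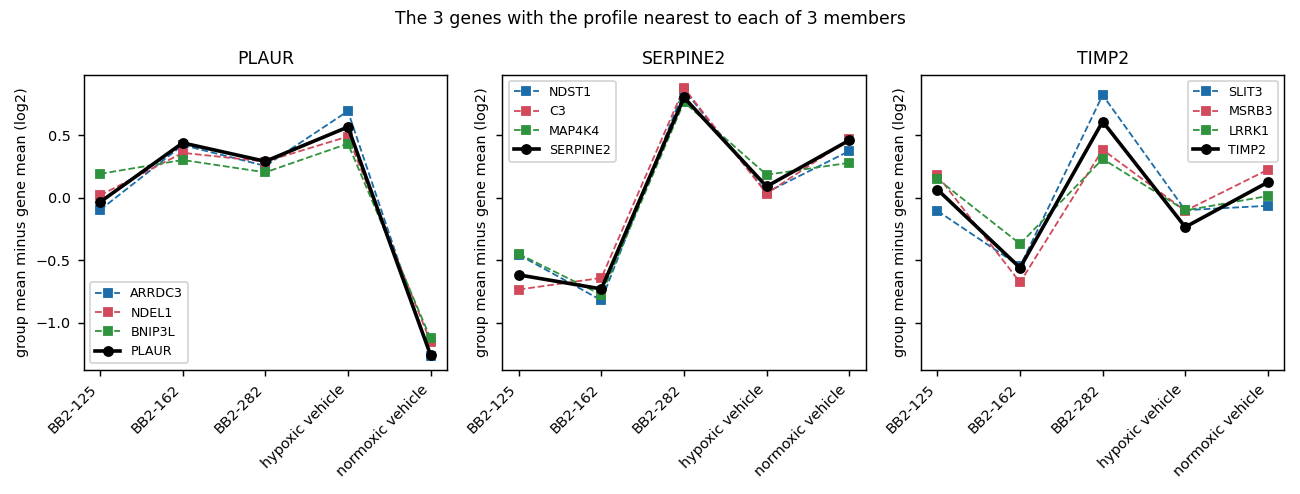
Group means of PLAUR, SERPINE2 and TIMP2 (black), each minus the gene's own mean, with the 3 genes of nearest profile; lines join the points of 1 gene and imply no order. The SERPINE2 neighbours all stand highest with BB2-282 and lowest with BB2-125 or BB2-162.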

How the data were processed

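The authors deposited linear-scale intensities of each probe set, made with RMA per the submitters' processing notes. RMA corrects background, normalises between arrays and summarises probes, and its compression of dim signal can understate changes of dim genes. Its version and build are not given in the sources used here. Here log2 was taken, and 19310 of 28869 probe sets with 1 symbol gave 18377 genes through the probe table and current RefSeq symbols. Genes above their array's 25th percentile on at least 3 arrays (16005) were fitted with limma 3.58.1 in R 4.3.3, 1 mean per group over all 15 arrays, for 10 comparisons. The fit was run on simulated independent arrays with few changed genes, whose changes were larger than most of the member changes here. That run checks the code, and it does not cover paired cultures, many changed genes or smaller changes. A group mean at or below the filter level is a bound, counted from that level. The genes, lists and naming rule were chosen with earlier results of these data known: the 8 members throughout, up to 4 called genes of lowest p per list and comparison (not all of which are described), and the nearest profiles. Which of these list genes and comparisons the text describes was picked after their values were seen. Same-number cultures deviated together in 1 of the 10 pairs of groups, BB2-125 and hypoxic vehicle (correlations of 0.189 to 0.328), and the replicate block changed no call of the 8 genes there. Promoter windows came from RefSeq, GRCh38.p14.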

Additional observations from a re-analysis of the deposited data

How the results depend on the processing

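Each of the 10 comparisons was rerun under the filter, scaling, variance, probe set, sample and block alternatives and without each replicate of its groups. Of 80 member comparisons 37 were called. Of those, 25 stayed called under each alternative run and 12 lost the call under at least 1, and none of the 37 changed sign. Of the 43 not called, 15 passed under at least 1. Members called in hypoxia were 3, and 5 after quantile normalization (2 to 4 without single replicates). For BB2-162 against hypoxic vehicle they were 4, but 2 after median centring and 1 in the fit of the 2 groups alone (2 to 4 without single replicates), where 3494 genes were called against 5780. For BB2-125 against BB2-162 they were 2, but 1 after median centring (1 to 3 without single replicates), and the genes called were 4182, but 2582 in the fit of those groups alone (2645 to 6208 without single replicates, lowest without BB2-162 replicate 3). For BB2-125 against BB2-282 they were 3, and 5 after quantile normalization. For BB2-162 against BB2-282 they were 4, but 2 after quantile normalization and in the fit of the 2 groups alone (2 to 3 without single replicates). The genes called for BB2-282 against hypoxic vehicle were 2176, and 1222 to 2393 without single replicates.

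With the replicate block in a fit of 2 groups alone, BB2-162 against hypoxic vehicle called 1 member and 3672 genes, BB2-125 against BB2-162 called 1 member and 1849 genes, and BB2-162 against BB2-282 called 2 members. Same-number cultures did not deviate together throughout in these comparisons. Correlations of their deviations were -0.324 to 0.58 for BB2-162 against hypoxic vehicle and -0.403 to 0.165 for BB2-125 against BB2-162. For BB2-162 against BB2-282 they were -0.429 to 0.082. The labels do not say whether same-number cultures were paired. The block over all 15 arrays ended 1 call, PLAU for BB2-162 against BB2-282 (adjusted p = 0.0535).

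The sign turned 19 times, each for a change near 0 that was not called. TIMP3 turned with the mean of its probe sets, to -0.033 for BB2-125 against hypoxic vehicle and 0.054 for BB2-162 against BB2-282. For BB2-162 against BB2-282, median centring and quantile normalization gave -0.040 and -0.053 for PLAT, and -0.053 and -0.049 for MMP14. Quantile normalization gave -0.15 for TIMP1 in BB2-125 against BB2-282. Without single replicates the range spanned 0 in the remaining cases. It was -0.145 to 0.026 for PLAT and -0.0041 to 0.175 for MMP14 in BB2-125 against hypoxic vehicle, and -0.26 to 0.052 for PLAUR in BB2-162 against hypoxic vehicle. For BB2-125 against normoxic vehicle it was -0.011 to 0.133 for PLAU, -0.105 to 0.0 for TIMP1 and -0.133 to 0.038 for TIMP2. For BB2-162 against BB2-282 it was -0.0185 to 0.062 for PLAT, -0.051 to 0.056 for MMP14 and -0.157 to 0.085 for TIMP3. The causes were not tested.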
